A study of Homo sapiens with 6 samples.

Results

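Collagens are triple-helical proteins of the extracellular matrix, and the genes described here are those of the collagen chains and of the proteins that modify, fold, cut and cross-link them. They were chosen by gene symbol, and 58 symbols of the deposited table matched, 43 of collagen chains and 15 of modifying proteins. Of these, the 38 with 60 or more counts summed over all 6 libraries were kept, 23 chains and 15 modifying proteins, out of 54259 symbols in the table. All 38 passed the filter on low counts and were tested among 15277 genes. That sum chose the genes, so a high level is no finding. The difference between the groups entered the choice only for COL9A3 and COL4A6, which needed at least 53 and 36 counts in shNC beside their 7 and 24 in shBry, so that their direction was fixed by the limit. COL9A3 and COL4A6 lay just inside the limit with 64 and 76 counts, and COL1A2 and COL3A1 lay just outside with 42 and 33. The other symbols under the limit were 18 chains, 7 of which were listed at 0 in every library.

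The libraries came from MDA-MB-231, an established human breast cancer cell line. In 3 of them (MDA-MB-231 shBry) the cells carried a short hairpin RNA directed at the transcription factor brachyury, and in the other 3 (MDA-MB-231 shNC) a control hairpin, so that the contrast asks which genes differ when brachyury is targeted. No other agent, time or genotype is labelled. The hairpin sequence, the vector and whether the lines were clonal are not given for these cells in the sources used here. The labels do not state whether the libraries came from separate cultures, so p-values measure the spread between these libraries, which may be technical.

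In collagen synthesis, 3 chains wind around each other, and each triplet of residues in the helix holds a glycine, because only glycine fits at the centre. Prolyl and lysyl hydroxylases modify the chains in the endoplasmic reticulum, the chaperone HSP47 binds the folded helix, proteinases remove the ends of fibrillar procollagen outside the cell, and lysyl oxidases start the cross-links. Fibrillar collagens give tensile strength, type IV forms the sheet of basement membranes, type VI forms beaded filaments at the cell surface, and epithelial and carcinoma cells are better known for type IV than for type I.

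The repeat of glycine is shown here because it is what makes these 23 proteins collagens and because its length differs between the classes used below. A stretch of 30 codons from the longest unbroken run of the coding sequence of each of 2 chains is printed in the 5′ to 3′ direction, from GENCODE 29 transcripts, with the glycine codon that opens each triplet in capitals. The stretches begin at codon 782 of COL4A2 and codon 559 of COL5A1.
COL4A2: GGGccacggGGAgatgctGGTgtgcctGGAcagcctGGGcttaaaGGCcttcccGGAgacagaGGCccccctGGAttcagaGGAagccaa
COL5A1: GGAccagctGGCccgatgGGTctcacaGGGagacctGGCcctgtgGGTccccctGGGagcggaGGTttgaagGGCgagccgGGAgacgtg
The unbroken run held 338 triplets in COL1A1 and COL5A1, 339 in COL5A2 and 217 in COL27A1, which are the 4 fibrillar chains. It held between 38 and 66 triplets in the type IV chains, which carry many interruptions, 87 in COL6A1 and COL6A2, 45 in COL6A3 and 113 in COL9A2 and COL9A3.

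A second set of sequences is shown because the 4 type IV genes that were called lie in pairs that start back to back. The limit on counts had fixed the direction of COL4A6, 1 of these 4. The arrangement is not particular to called genes. COL4A4 (chromosome 2, minus strand), which was not called, begins at 227164453. Its neighbour COL4A3 (plus strand), which was under the limit on counts, begins at 227164565. COL4A1 (chromosome 13 of GRCh38, 110148963 to 110307233, minus strand) and COL4A2 (110305812 to 110513209, plus strand) have RefSeq starts with 126 bases between them. COL4A5 (chromosome X, 108439844 to 108697545, plus strand) and COL4A6 (108155607 to 108439497, minus strand) have RefSeq starts with 379 bases between them. The bases between the starts of the first pair and the 250 bases before the start of COL4A5 are from RefSeq on GRCh38.p14, on the plus strand, with matches to the GC box GGGCGG and to CCAAT in either orientation in capitals.
COL4A1-COL4A2, chr13:110307158-110307283: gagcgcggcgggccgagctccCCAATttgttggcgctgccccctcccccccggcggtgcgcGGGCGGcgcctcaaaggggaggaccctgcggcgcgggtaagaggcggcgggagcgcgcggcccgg
COL4A5, chrX:108439588-108439837: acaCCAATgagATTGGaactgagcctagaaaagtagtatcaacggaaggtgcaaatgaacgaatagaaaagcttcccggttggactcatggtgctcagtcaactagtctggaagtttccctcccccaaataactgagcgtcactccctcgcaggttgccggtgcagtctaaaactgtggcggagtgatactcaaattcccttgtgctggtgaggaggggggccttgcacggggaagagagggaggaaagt
The 250 bases before the start of COL6A3, the called chain with the largest fitted rise, are given on its own minus strand and hold neither motif, nor any of the others searched below. Those before the start of COL6A2, the chain with the highest level per length, were chosen after its values were seen and hold 4 GC boxes, in capitals as above, and a TATA box (TATAAA) in lower case.
COL6A3, chr2:237414165-237414414: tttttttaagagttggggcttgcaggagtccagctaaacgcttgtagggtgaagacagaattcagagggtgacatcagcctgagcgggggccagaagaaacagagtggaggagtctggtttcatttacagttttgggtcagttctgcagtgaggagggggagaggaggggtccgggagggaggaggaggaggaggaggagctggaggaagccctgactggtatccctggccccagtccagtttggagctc
COL6A2, chr21:46097862-46098111: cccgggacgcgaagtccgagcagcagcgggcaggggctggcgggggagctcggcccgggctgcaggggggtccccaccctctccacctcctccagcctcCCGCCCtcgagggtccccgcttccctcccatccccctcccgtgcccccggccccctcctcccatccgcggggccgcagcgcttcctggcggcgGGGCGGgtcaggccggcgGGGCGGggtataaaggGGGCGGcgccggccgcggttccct

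The libraries held between 19319411 and 22985371 counts. Brachyury, listed under its older symbol T, had 0 counts in all 6 libraries, and the gene that the hairpin targets could therefore not serve as a check of the labels. Neither its expression in the control cells nor its knockdown can be seen in these counts. The series' design text calls the RNA pericardial while the labels name MDA-MB-231, and the marker genes of the line were compared for that reason. All 9 genes known to be high in MDA-MB-231 had counts, with a summed level between 9038 and 9481 CPM (counts scaled to a common library size by edgeR's TMM method) in shNC and between 8131 and 8696 in shBry, while 8 genes known to be low in it summed to between 25.9 and 33.8 CPM. Most of the high sum was VIM, MSN, LGALS1 and AXL. S100A4 of the high list had a mean of 16.05 CPM in shNC and 8.60 CPM in shBry. GATA3 of the low list had 10.36 CPM in shNC and 12.99 CPM in shBry, so the lists did not separate gene by gene. Of the high list, PLAUR, CD44, AXL and LGALS1 had higher means in shBry. VIM, MSN, KRT18, S100A4 and CAV1 had lower ones. Of 12 fibroblast markers, DCN, DPT, MEOX2 and TCF21 were at 0 in every library. The list summed to between 14.2 and 17.3 CPM in shNC and between 12.1 and 14.4 CPM in shBry, most of it PDGFRB. PDGFRB itself was not lower, with a mean of 10.6 CPM in shNC and 11.2 CPM in shBry, while FBLN1 had 4.64 and 1.91 CPM. Of 8 mesothelial markers, ITLN1 and KRT5 were at 0, and the list summed to between 40.2 and 42.1 CPM in shNC and between 51.6 and 57.9 CPM in shBry, most of it MSLN. CALB2 of the same list went the other way, with 222 counts in shNC replicate 3 against 30 and 29 in the other shNC libraries and 14 to 21 in shBry. The endothelial list of 6 genes summed to between 3.45 and 4.63 CPM in shNC and between 1.29 and 2.66 CPM in shBry, and that of 6 smooth muscle genes to between 22.8 and 27.2 CPM in shNC and between 15.0 and 17.3 CPM in shBry, with counts for all members of both. Both sums were lower in every shBry library, but single genes carried most of the difference. NOTCH3 had a mean of 11.9 CPM in shNC and 4.49 CPM in shBry, and KDR had 2.90 and 1.42 CPM. ACTA2 and CNN1 differed little, with 7.28 and 0.925 CPM in shNC and 6.68 and 0.910 CPM in shBry. RGS5, TEK and EMCN had higher means in shBry. The part of both lists in the results below was not tested. The 6 leukocyte genes summed to at most 0.229 CPM, with PTPRC, TYROBP and MS4A1 at 0.

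A few abundant collagen chains took up more of the RNA of shBry cells. The 23 levels summed to 1404, 1271 and 1260 CPM in the 3 shNC libraries and to 2216, 2129 and 2105 CPM in the 3 shBry libraries. The groups did not overlap, and the mean sum was 1.64 times higher in shBry, with 2150 ± 58.4 CPM against 1311 ± 80.2 CPM (SD, n = 3). COL4A2, COL6A1, COL6A2 and COL4A1 carried 94.6% of that difference, and the other 19 chains summed to 419 CPM in shNC and 464 CPM in shBry. In bulk RNA of this kind, more cells that express a gene and more RNA per cell cannot be told apart.

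A gene was called different when edgeR's quasi-likelihood test gave a Benjamini-Hochberg adjusted p below 0.05 over all genes and the fold change was above 1.5, and a positive log2 fold change means a higher level in shBry. Of the 38 genes, 19 (50%) were called, against a background of 32.4% of all genes tested. Of these, 11 were higher in shBry, 28.9% against a background of 17.1%, and 8 were lower, 21.1% against a background of 15.2%. Without COL9A3 and COL4A6, whose direction the limit fixed, 17 of 36 (47.2%) were called, 11 higher and 6 lower (16.7%). The chains made up most of the 19 calls, with 14 of 23 called, 8 higher and 6 lower. Without COL9A3 and COL4A6, 12 of 21 chains (57.1%) were called, 8 higher and 4 lower. Of the 15 modifying proteins 5 were called, 3 higher and 2 lower, 33.3% and thus near the background. An adjusted p below 0.05 without the fold limit was reached by 28 of the 38, against 53.3% of all genes. The 3 shBry values lay clear of the 3 shNC values in 28 genes, 19 higher and 9 lower, against 59.5% of all genes. The median log2 fold change was 0.49 over the chains and 0.12 over the modifying proteins, and 0.03 over all genes tested.

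**Figure D1:**
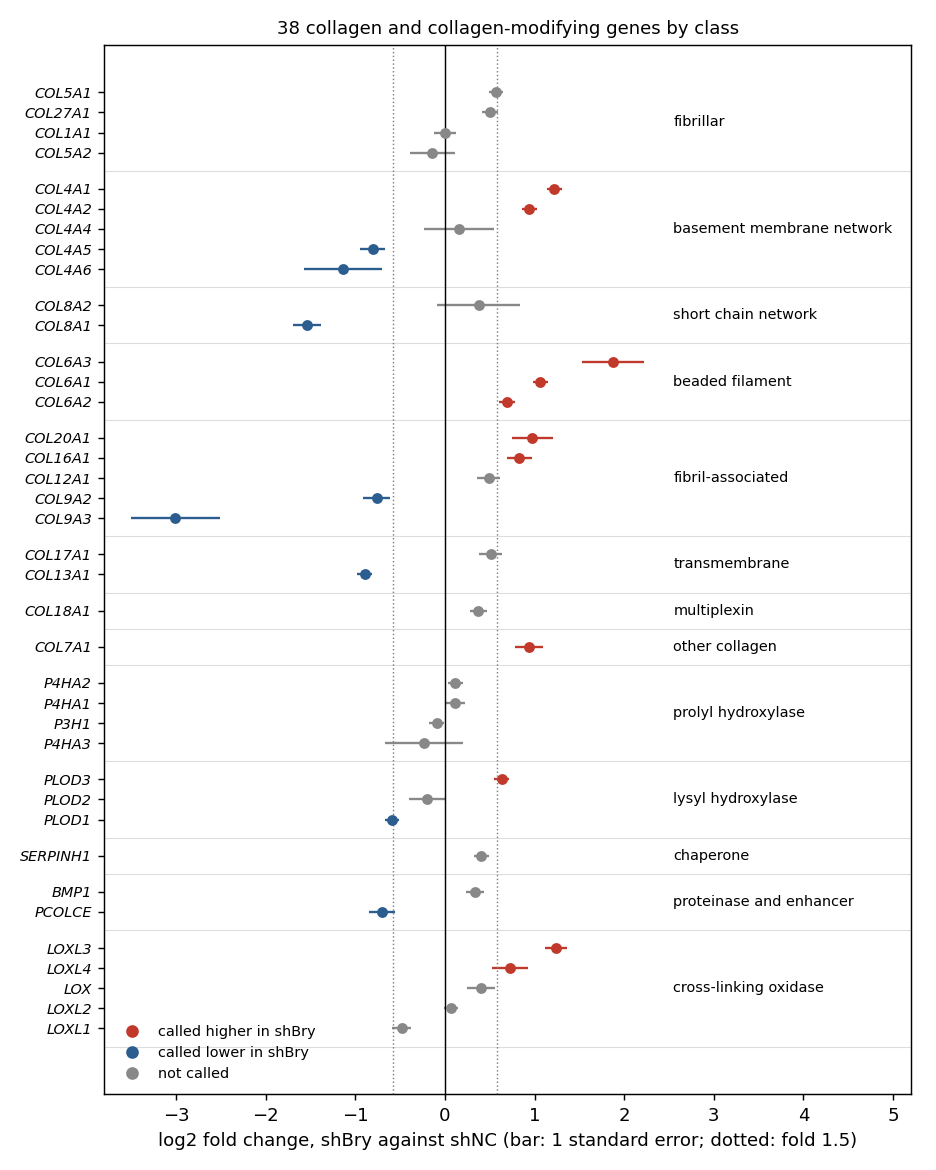
Log2 fold change of shBry against shNC (x axis) of the 38 genes, grouped by class (y axis), with bars of 1 standard error and dotted lines at a fold change of 1.5. Red points are called higher, blue points called lower and grey points not called. The beaded filament chains lie to the right of zero and the 4 prolyl hydroxylases and 4 fibrillar chains lie between the dotted lines. The point of COL9A3 rests on 7 counts in shBry, so its position depends on the prior count of the fit.

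Type IV collagen, the network of basement membranes, was split. COL4A1 and COL4A2, which together make the common trimer of basement membranes, rose. COL4A5, which belongs to the trimers of more specialised membranes, fell. COL4A6, of those trimers too, was also lower, but the limit on counts had fixed its direction. COL4A1 had 78.9, 73.5 and 86.4 CPM in the shNC libraries and 189.9, 184 and 182 CPM in the shBry libraries. COL4A2 had 365, 305 and 329 CPM in shNC and 662, 633 and 628 CPM in shBry. Every shBry library lay above every shNC library for both genes. Their log2 fold changes were 1.22 (standard error or SE 0.08, edgeR adjusted p = 3.5e-08) and 0.94 (SE 0.08, edgeR adjusted p = 4.4e-07).
COL4A5, the gene of the chain that is mutated in X-linked Alport syndrome, had 14.1, 14 and 12.6 CPM in shNC and 6.84, 8.26 and 8.16 CPM in shBry. COL4A6 was close to the detection limit, with 15, 24 and 13 counts in shNC and 10, 8 and 6 counts in shBry. Both had lower values in every shBry library. For COL4A6 the limit on its summed counts had fixed which group was lower in sum, though not each library, so that its values are a description. The log2 fold change was -0.81 for COL4A5 (SE 0.14, edgeR adjusted p = 2.5e-04) and -1.13 for COL4A6 (SE 0.44, edgeR adjusted p = 0.041). The call of COL4A6 depended on single libraries, and it was made in 2 of 6 fits that left a library out. COL4A4 was not called, with a log2 fold change of 0.16 and overlapping values between 0.464 and 1.08 CPM. The 5 genes together summed to 428 ± 32.7 CPM in shNC and 836 ± 22.1 CPM in shBry (SD, n = 3), nearly all of it COL4A2 and COL4A1.

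Type VI collagen, which forms beaded filaments between basement membranes and the matrix, was the class in which each of the 3 chains with enough counts was called higher. COL6A1 (chromosome 21, 45981737 to 46005050, plus strand) had 194, 174 and 160.0 CPM in shNC and 373, 360.0 and 373 CPM in shBry. Its neighbour COL6A2 (46098097 to 46132849, plus strand) had 332, 303 and 276 CPM in shNC and 522, 477 and 473 CPM in shBry. Neither gene's groups overlapped. The log2 fold changes were 1.07 for COL6A1 (SE 0.08, edgeR adjusted p = 1.5e-07) and 0.69 for COL6A2 (SE 0.09, edgeR adjusted p = 1.2e-05).
COL6A3 (chromosome 2, 237324003 to 237414375, minus strand) encodes the largest chain of the common type VI trimer, and its level was far under that of the other chains. It had 18, 10 and 7 counts in shNC, which are 0.825, 0.473 and 0.351 CPM, and 35, 45 and 53 counts in shBry, which are 1.88, 1.90 and 2.35 CPM. The shBry libraries were all above the shNC libraries, with a log2 fold change of 1.87 (SE 0.35, edgeR adjusted p = 4.1e-04). A limit of 10 counts in every library removes COL6A3 from the test. COL6A5 and COL6A6, which encode alternatives to COL6A3, were listed at 0 in all 6 libraries.

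**Figure D2:**
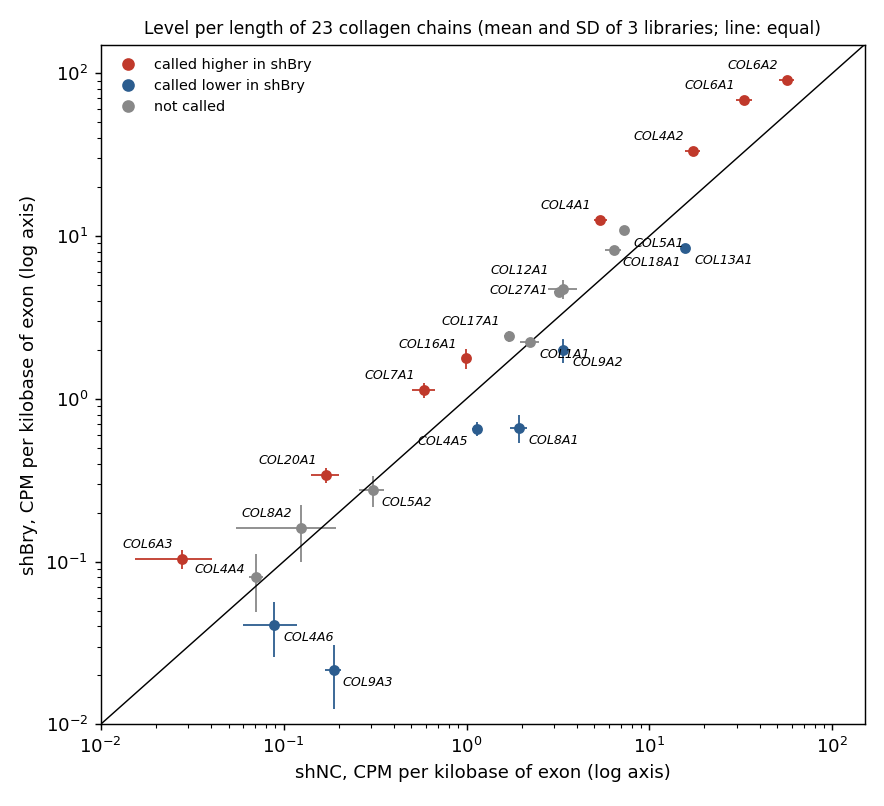
Mean level per length of the 23 collagen chains, as CPM per kilobase of exon, in shNC (x axis) and shBry (y axis), both on log axes. Points are means and bars are SDs of 3 libraries, and the line marks equal levels. COL6A2, COL6A1 and COL4A2 sit at the upper right, above the line, and COL9A3 sits farthest below it.

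Levels can be compared between genes only per length, here as CPM per kilobase of all annotated exon bases. On that scale COL6A2 was first among the chains in both groups, with 35.0% of the summed chain level in shNC and 35.8% in shBry. COL6A1 followed with 20.4% in shNC and 27.1% in shBry, and COL4A2 with 10.7% and 13.1%. COL13A1 held the fourth place in shNC with 9.77% and the sixth in shBry with 3.31%, and COL4A1 moved from 3.37% to 4.94%. COL1A1, the main chain of type I collagen, held 1.38% in shNC and 0.878% in shBry. Genes differ in how many of the annotated exons they use, so these shares depend on the length chosen. COL4A1 has 14738 bases in the union of its exons and 6616 in its longest transcript. Per kilobase of the longest transcript COL6A2 was still first, but COL4A2 came before COL6A1, with 51.3 against 41.5 CPM per kilobase in shNC and 98.7 against 86.9 in shBry.

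The fibrillar collagens, which give tissues their tensile strength, were not called. COL1A1 (chromosome 17, 50183289 to 50201632, minus strand) had 23.3, 23.4 and 19 CPM in shNC and 23.3, 22.0 and 20.6 CPM in shBry, with a log2 fold change of 0.00 (SE 0.12, edgeR adjusted p = 0.98). COL1A2, its partner in the type I trimer, had 7, 4 and 9 counts in shNC and 15, 5 and 2 counts in shBry, which were too few to test. COL3A1 had 16, 6 and 6 counts in shNC and 0, 2 and 3 counts in shBry, and it was not tested either. Both genes, which are abundant in fibroblasts, were thus near the detection limit in both groups.
COL5A1, which encodes a chain that starts type I fibrils, came closest to a call. It had 85.1, 81.8 and 78.0 CPM in shNC and 122, 125 and 116 CPM in shBry, and the groups did not overlap. Its log2 fold change of 0.57 (SE 0.08, edgeR adjusted p = 3.6e-05) was just under the fold limit, which is 0.585 on the log2 scale. COL27A1 had 0.50 and did not overlap between the groups, and COL5A2 had -0.14 with overlapping values between 1.77 and 2.65 CPM. The 4 genes with the longest unbroken glycine repeat, of 217 to 339 triplets, were these fibrillar genes. The 14 called chains had runs of 38 to 113 triplets, and the 5 other chains that were not called had 30 to 60, namely COL18A1 30, COL12A1 32, COL4A4 45, COL17A1 56 and COL8A2 60.

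Of the 2 short-chain collagens 1 fell, and the fibril-associated collagens were called in both directions. COL8A1 (chromosome 3, 99638475 to 99799226, plus strand), whose product forms hexagonal networks around vessels and under endothelium, fell most clearly. It had 18.6, 16.2 and 20.0 CPM in shNC and 5.44, 5.69 and 7.67 CPM in shBry. The lowest shNC value was above the highest shBry value by more than the spread within either group, and the log2 fold change was -1.54 (SE 0.16, edgeR adjusted p = 2.2e-06). Its partner COL8A2 was not called, with 5 to 22 counts per library and a log2 fold change of 0.38.
The type IX chains, which sit on the surface of cartilage fibrils, were both lower. COL9A2 had 14.4, 15.0 and 13.2 CPM in shNC and 10.1, 7.67 and 7.49 CPM in shBry, with a log2 fold change of -0.76 (SE 0.15, edgeR adjusted p = 6.8e-04). COL9A3 had 18, 19 and 20 counts in shNC and 1, 3 and 3 counts in shBry. It reached the limit of 60 counts through the shNC libraries, which held 57 of its 64 counts. The shNC level was 8.48 times the shBry level, with an exact 95% interval of 3.86 to 22.0 that covers counting error only, and since the limit fixed this direction the ratio is a description and no test.
COL16A1 and COL20A1 rose. COL16A1, of a collagen found near fibrils and at the cell surface, had 9.44, 9.45 and 8.71 CPM in shNC and 19, 14.4 and 15.8 CPM in shBry, with a log2 fold change of 0.83 (SE 0.14, edgeR adjusted p = 2.0e-04). COL20A1 had 2.11, 2.03 and 1.50 CPM in shNC and 3.82, 4.05 and 3.28 CPM in shBry, with a log2 fold change of 0.98 (SE 0.23, edgeR adjusted p = 0.0023). Neither gene's groups overlapped. COL12A1 was not called at a log2 fold change of 0.49, and it passed the fold limit only without shNC replicate 3, at 0.60.

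Among the remaining chains, COL13A1 (chromosome 10, 69801867 to 69964275, plus strand), a transmembrane collagen of cell-matrix contacts, fell. It had 93.9, 91.5 and 91.6 CPM in shNC and 51.6, 46.7 and 50.5 CPM in shBry. The values of each group lay close together and far from those of the other, with a log2 fold change of -0.90 (SE 0.08, edgeR adjusted p = 7.3e-07). COL7A1 (chromosome 3, 48564073 to 48595267, minus strand), the gene of the anchoring fibrils that tie epithelium to its stroma, rose. It had 6.78, 7.28 and 5.46 CPM in shNC and 12.3, 11.3 and 13.9 CPM in shBry, with a log2 fold change of 0.94 (SE 0.16, edgeR adjusted p = 1.8e-04). COL17A1, the transmembrane collagen of hemidesmosomes, and COL18A1, the source of endostatin, were not called. Their log2 fold changes were 0.51 and 0.37, with higher values in every shBry library, and 16.4% of the exon bases of COL18A1 lie in exons of SLC19A1.

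**Figure D3:**
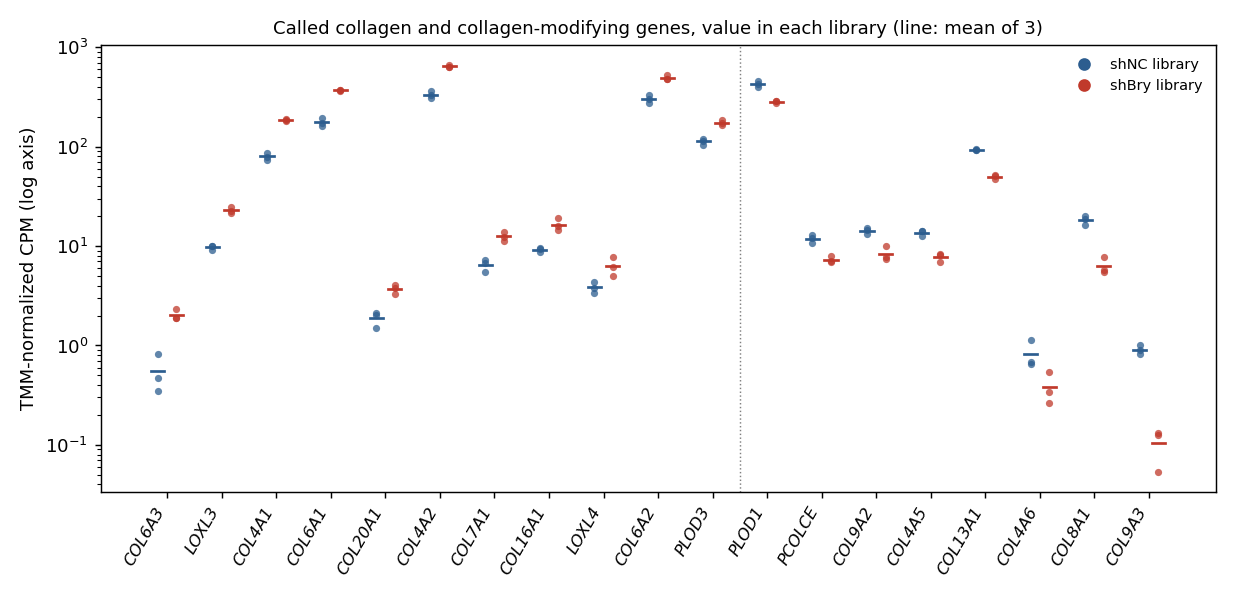
TMM-normalized CPM (y axis, log scale) of the 19 called genes (x axis) in each of the 3 shNC libraries (blue) and the 3 shBry libraries (red), with a line at the mean. Genes called higher in shBry are left of the dotted line and genes called lower are right of it. The blue and red points of each gene do not overlap, and levels run from 0.0538 CPM in a shBry library for COL9A3 to 662 CPM in a shBry library for COL4A2.

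The ratio of RNA between chains of 1 collagen type was taken in each library. It was compared between the groups by a two-sided exact permutation test, in which 3 libraries against 3 cannot go below p = 0.1. Of the 12 pairs set out, which include 3 pairs of enzymes, 10 had both genes above 60 counts. Of these 10, 7 reached that smallest p, among them COL9A2 to COL9A3, which holds a gene whose direction the limit on counts fixed. That smallest p goes with groups that do not overlap, which held for 59.5% of all genes taken singly. How often it holds for ratios of other genes was not tested. COL8A2, COL5A2 and LOXL2 overlapped between the groups, so the ratios to them may only restate COL8A1, COL5A1 and LOX. The Benjamini-Hochberg adjusted p over the 10 pairs is at best 0.143. The ratios are of counts per kilobase of exon.
COL4A1 to COL4A2 was 0.283, 0.315 and 0.343 in shNC and 0.375, 0.380 and 0.380 in shBry (exact p = 0.1). COL6A1 to COL6A2 was 0.590, 0.578 and 0.585 in shNC and 0.719, 0.761 and 0.794 in shBry (exact p = 0.1). In both pairs all 3 shBry ratios were above the 3 shNC ratios. COL6A3 was far under COL6A1 in either group, with a mean ratio of 0.000799 in shNC and 0.00150 in shBry (exact p = 0.1).
COL8A1 to COL8A2 had a mean of 17.6 in shNC and 4.34 in shBry, and COL5A1 to COL5A2 was 24.0 in shNC and 39.8 in shBry (exact p = 0.1 for each). COL9A2 to COL9A3 was 18.0 in shNC and 98.9 in shBry (exact p = 0.1), where the shBry value rests on 7 counts of COL9A3. Because the limit on summed counts fixed the direction of COL9A3, this ratio is a description and no test. COL4A5 to COL4A6 was 13.3 and 16.6 with overlapping libraries (exact p = 0.5). Of the enzymes, LOX to LOXL2 was 0.0347 in shNC and 0.0431 in shBry (exact p = 0.1), and PLOD1 to PLOD2 was 10.96 and 8.44 (exact p = 0.5).

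**Figure D4:**
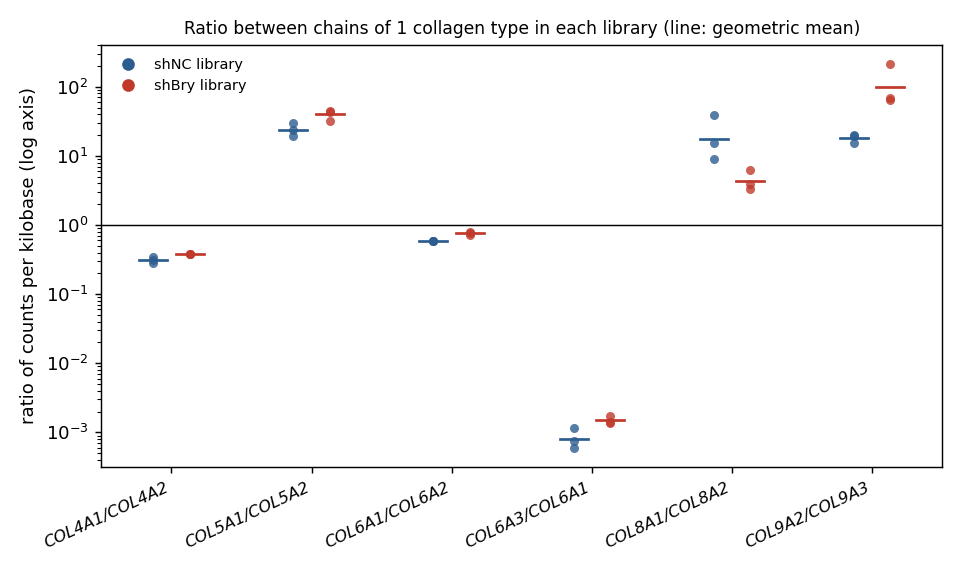
Ratio of counts per kilobase of exon (y axis, log scale) between chains of 1 collagen type (x axis) in each shNC library (blue) and shBry library (red), with a line at the geometric mean of 3 libraries. For the 6 pairs drawn the red points do not overlap the blue points, and COL8A1/COL8A2 is the pair in which red lies lower. COL4A5/COL4A6, the compared pair of chains whose libraries overlapped, and the pairs of enzymes are not drawn. COL9A2/COL9A3 holds a gene whose direction the limit on counts fixed.

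None of the 4 prolyl hydroxylase genes among the 38 was called. P4HA1, P4HA2 and P4HA3 encode the catalytic subunits of prolyl 4-hydroxylase, which stabilises the helix, and P3H1 encodes a prolyl 3-hydroxylase. P4HA1 had 68.0, 75.2 and 81.4 CPM in shNC and 69.0, 86.4 and 87.6 CPM in shBry, with a log2 fold change of 0.12 (SE 0.11, edgeR adjusted p = 0.37). The 4 genes had log2 fold changes between -0.23 and 0.12, and the values of each overlapped between the groups. The value of P4HA3 rests on shNC replicate 3, which had 35 counts against 12 and 14 in the other shNC libraries, and without it the log2 fold change was 0.43. Other members of the family stood in the list of folding genes described below, where P3H3 was called lower at -0.65 (edgeR adjusted p = 7.3e-05) and P3H2 and P3H4 were not called at -0.28 and 0.56. The sum of the 4 genes was 247 ± 4.17 CPM in shNC and 254 ± 10.7 CPM in shBry (SD, n = 3). P4HA1 to P4HA2 had a mean ratio of 2.62 in shNC and 2.60 in shBry (exact p = 1).

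The lysyl hydroxylases went in opposite directions. PLOD1 (chromosome 1, 11934205 to 11975538, plus strand), which hydroxylates lysines of the helix, had 455, 429 and 401 CPM in shNC and 286, 290.3 and 276 CPM in shBry. PLOD3 (chromosome 7, 101205977 to 101218420, minus strand), whose product also adds sugars to hydroxylysine, had 119, 115 and 104 CPM in shNC and 187, 165 and 173 CPM in shBry. The groups did not overlap for either gene. The log2 fold change was -0.59 for PLOD1 (SE 0.08, edgeR adjusted p = 2.0e-05) and 0.63 for PLOD3 (SE 0.08, edgeR adjusted p = 2.5e-05).
Both lie near the fold limit. PLOD1 was under it without shBry replicate 3 and without shNC replicate 1, and PLOD3 was under it without shBry replicate 1 and without shNC replicate 3. PLOD2, which hydroxylates the telopeptides, ranged from 43.7 to 74.5 CPM in shNC and from 35.6 to 65.2 CPM in shBry, and a difference was not detectable within that spread.

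SERPINH1 (chromosome 11, 75562056 to 75572783, plus strand) encodes HSP47, the chaperone specific to collagen. It had 371, 363 and 329.9 CPM in shNC and 493, 429 and 487 CPM in shBry. All shBry libraries were higher, but the log2 fold change of 0.40 (SE 0.08, edgeR adjusted p = 9.9e-04) was under the fold limit. BMP1, the proteinase that removes the C-terminal propeptide, was not called at 0.34, while PCOLCE, which enhances that cleavage, fell. PCOLCE had 11.9, 13 and 10.6 CPM in shNC and 7, 6.87 and 8.02 CPM in shBry, with a log2 fold change of -0.70 (SE 0.15, edgeR adjusted p = 0.0011). An antisense gene overlaps 16.6% of its exon bases, and without known strand their reads cannot be told apart.

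Among the lysyl oxidases, which oxidise lysine for cross-linking, 2 of 5 rose. LOXL2 (chromosome 8, 23297189 to 23425328, minus strand) was the most abundant of them, with 398, 371 and 352 CPM in shNC and 385, 396 and 391 CPM in shBry. Its values overlapped, and its log2 fold change was 0.06 (SE 0.08, edgeR adjusted p = 0.50). LOXL3 (chromosome 2, 74532414 to 74555690, minus strand) had 9.07, 10.02 and 10.02 CPM in shNC and 24.6, 21.6 and 22.6 CPM in shBry, with a log2 fold change of 1.24 (SE 0.12, edgeR adjusted p = 1.5e-06). The neighbouring genes DOK1 and HTRA2 on the other strand overlap 19.3% of its exon bases, so reads could be shared.
LOXL4 had 4.35, 3.40 and 3.76 CPM in shNC and 6.19, 7.84 and 5.01 CPM in shBry, with a log2 fold change of 0.73 (SE 0.20, edgeR adjusted p = 0.0078). Without shBry replicate 2, the highest of them, it was 0.52 and no longer called. LOX, at a log2 fold change of 0.41, and LOXL1, at -0.48, were not called. The 5 genes summed to 433 ± 24.1 CPM in shNC and 461 ± 6.94 CPM in shBry (SD, n = 3).

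Promoter sequences, 250 bases before to 50 bases after the start, were held by the RefSeq table for 29 of the 38 genes. BMP1, COL1A1, COL20A1, COL5A2, COL6A1, COL8A1, COL9A3, LOXL2 and P4HA3 had none in it. A gene was counted for a motif if any of its promoters held it on either strand. The GC box GGGCGG occurred in 21 of the 29 genes (72.4%), against 48.3% of all 27305 genes in the RefSeq table, whether expressed here or not. It occurred in 8 of 9 genes called higher, 4 of 6 genes called lower and 9 of 14 genes not called. CCAAT occurred in 9 of 29 (31.0%, against 39.7% of all), including both pairs of called type IV genes, and TATAAA in 6 of 29 (20.7%, against 14%). The core of the hypoxia response element, ACGTG, occurred in 6 of 29 (20.7%, against 24.9%). These were COL12A1, COL5A1, LOX, P4HA1, PLOD2 and SERPINH1, and none of the 6 was called. The T-box motif AGGTGTGA, a sequence that brachyury binds, and the AP-1 site TGANTCA were found in no window of the 29 genes, against 1.21% and 9.37% of all. These are matches of letters and not bound sites, the windows of the paired genes share sequence, and a base could count in more than 1 motif.

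Other genes linked to collagen were taken from 5 lists. Of 26 genes of collagen folding and secretion, all were tested, and 3 rose and 2 fell. The 3 with the smallest p were HSPA5, SEC24D and CALR. HSPA5, the chaperone BiP, rose with a log2 fold change of 1.36 (edgeR adjusted p = 9.8e-09), and SEC24D, a coat protein of the vesicles that carry procollagen, rose from 29.2 ± 3.30 to 76.1 ± 0.196 CPM (log2 fold change 1.38, edgeR adjusted p = 5.6e-08). CALR, the chaperone calreticulin, fell with a log2 fold change of -0.61 (edgeR adjusted p = 1.8e-05). Over these 26 genes the median was 0.04, and 19.2% were called, under the 32.4% of all genes.
Of 24 genes of procollagen cleavage and fibril assembly, 11 were tested, and 3 rose and 2 fell (45.5% called, against 32.4% of all genes), with a median of 0.30. TGM2, the transglutaminase that cross-links matrix proteins, fell from 1561 ± 67.4 to 501 ± 16.7 CPM (log2 fold change -1.64, edgeR adjusted p = 7.6e-10). TNC, which encodes the matrix glycoprotein tenascin C, rose from 108 ± 14.9 to 318 ± 29.6 CPM (log2 fold change 1.56, edgeR adjusted p = 3.0e-08). ADAMTS14, one of the proteinases that remove the N-terminal propeptide, rose from 0.713 to 2.18 CPM (log2 fold change 1.60, edgeR adjusted p = 3.6e-04).

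Of 17 genes of collagen breakdown and uptake, 13 were tested and 8 called (61.5%, against 32.4% of all genes), 4 higher and 4 lower, with a median of 0.09. MMP1, the interstitial collagenase, rose from 6.14 ± 0.638 to 66.0 ± 4.71 CPM (log2 fold change 3.43, edgeR adjusted p = 3.5e-11). PEPD, the peptidase that frees proline from collagen fragments, fell from 129 ± 6.35 to 49.4 ± 5.27 CPM (log2 fold change -1.39, edgeR adjusted p = 3.2e-08). TIMP2, an inhibitor of metalloproteinases, fell with a log2 fold change of -0.93 (edgeR adjusted p = 2.1e-07).
Of 31 regulators of collagen genes, 27 were tested, and 6 rose and 1 fell (25.9% called, under the 32.4% of all genes), with a median of 0.25. The 3 with the smallest adjusted p were CEBPB, EPAS1 and ETS1, all transcription factors, with log2 fold changes of 1.59, 1.79 and 1.40 (edgeR adjusted p = 9.3e-09, 1.3e-08 and 1.4e-08). Of 12 genes listed as collagen receptors outside the integrins, 8 were tested, and 3 rose and 1 fell (4 of 8 or 50% called, against 32.4% of all genes), with a median of 0.38. SDC4, which encodes the proteoglycan syndecan 4, rose with a log2 fold change of 1.01 (edgeR adjusted p = 1.8e-07). ENG, which encodes endoglin, fell with -0.76 (edgeR adjusted p = 4.7e-06), but it is not an established collagen receptor. DDR2, a receptor kinase for fibrillar collagen, rose from 4 to 9.53 CPM (log2 fold change 1.25, edgeR adjusted p = 2.6e-05).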

How the data were processed

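RNA of MDA-MB-231 shBry and MDA-MB-231 shNC cells was sequenced with 3 libraries each. The authors deposited raw counts, whole numbers of reads per gene symbol without normalization. The submitters' processing notes name HISAT2 2.0.4, HTSeq and the build GRCh38, while the annotation and the strand setting are not given in the sources used here. Libraries were grouped by the hairpin in their labels. Genes were filtered with filterByExpr (minimum count 10), scaled with TMM and compared in edgeR 4.0.16 (R 4.3.3) by its quasi-likelihood test, with Benjamini-Hochberg adjustment over 15277 genes. The procedure was tested on simulated data. The limit that a count of 0 allows is 3 counts, or 0.131 to 0.155 CPM, and intervals and floors cover counting error only. Libraries of 1 group differed by more than sampling noise.

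Gene locations, exon lengths, overlaps and coding sequences came from GENCODE 29, matched by symbol, and promoters from RefSeq on GRCh38.p14. Values in every library are given for called genes and for the 8 genes highest per length, and in each further list the 3 genes with the smallest adjusted p are named. Other genes were named after their values were seen. The genes, the lists and this rule were chosen with earlier results of these data known. COL11A2 was not used, and 1 sequence is not reported here. Ratios were compared with SciPy 1.17.1. Alternatives were library totals without TMM, DESeq2 1.42.0, limma-voom (limma 3.58.1), other filters and limits, the replicate number as a block, and each library left out in turn. ChIP-seq data were not analysed here.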

Additional observations from a re-analysis of the deposited data

How the results depend on the processing

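At a fold limit of 2 instead of 1.5, 4 of the 38 genes were called higher and 3 lower, and 2297 of all genes were called. The lists of folding, breakdown and receptors then held 2, 5 and 2 called genes, and that of assembly held 5 at this limit, at 1.5 and with none. With no fold limit, 19 of the 38 genes were called higher, 8139 of all genes were called, and the lists of folding and regulators held 13 and 16. Plain library totals, limma-voom and the unadjusted p called the same 19 of the 38 genes. DESeq2, no expression filter and the replicate block each called 18 of these and lost COL4A6. With at least 10 counts in every library, 34 were tested and 16 called, and COL4A6, COL6A3 and COL9A3 lost their call because they were not tested. With each library left out in turn, 10 to 12 genes were called higher, 6 to 8 lower, and 4587 to 5025 of all genes. The lists of folding, assembly, breakdown and regulators held 5 to 7, 5 to 6, 8 to 9 and 6 to 8, and that of receptors held 4 each time. Of the 19 called genes, 15 were called in all 6 such fits, and the exceptions were COL4A6, LOXL4, PLOD1 and PLOD3. Without COL9A3 and COL4A6, an alternative chosen after seeing the data, 11 genes were called higher and 6 lower. COL5A1 was called without shBry replicate 3 and without shNC replicate 1, and COL12A1 without shNC replicate 3. No gene of the 38 that was called in the first place changed direction in any alternative. Of those not called, COL1A1, COL4A4, LOXL2, P4HA3 and PLOD2 changed sign when a library was left out. Replicate numbers were not taken to mark pairs. Libraries of the same number had correlations of 0.18, -0.08 and -0.03 in their deviations from the group means over 15277 genes. Those of different numbers ranged from -0.22 to 0.23. Deviations from a mean of 3 libraries depend on each other, so these values cannot decide whether libraries were paired. Depth limits COL4A4, COL4A6, COL6A3, COL8A2, COL9A3 and P4HA3, which had under 60 counts in each library.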
